A study of Mus musculus with 25 samples.

Results

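Oxidative phosphorylation (OXPHOS) genes were described here as a group of nuclear genes, sorted by the 5 complexes of the mitochondrial inner membrane. A gene belonged to the group if its symbol began with Ndufa, Ndufb, Ndufc, Ndufs, Ndufv, Uqcr, Cox4, Cox5, Cox6, Cox7, Cox8 or Atp5, or was Sdha, Sdhb, Sdhc, Sdhd or Cyc1. Of the genes on the array, 91 matched and had a probe set of their own, and 84 of these were kept because they were called present on at least 2 arrays of 1 group. The whole series had 18194 genes with a probe set, of which 8341 were kept by the same filter. The kept genes comprised 40 of complex I, 4 of complex II, 9 of complex III, 14 of complex IV and 17 of complex V. The prefix Ndufa also brings in the assembly factors named Ndufaf, which were counted with complex I although they are not subunits, and Ndufa4, which was counted with complex IV.

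Complexes I to IV pass electrons from NADH and succinate to oxygen. Complexes I, III and IV also pump protons, and complex V uses the proton gradient to make ATP. Complex I holds core subunits that carry the flavin and iron-sulfur clusters and many supernumerary subunits around them, and complex II is also an enzyme of the tricarboxylic acid cycle. In macrophages these complexes are known for their part in alternative activation, while inflammatory activation is known to shift cells towards glycolysis. Proximal tubule cells of the kidney are rich in mitochondria, so their RNA also carries these transcripts.

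The cells were CD11b+ cells sorted by surface Ly6C from the kidneys of C57BL/6 males, 8 to 10 weeks old. Injured mice had 28 min of bilateral renal ischemia and then reperfusion, and sham mice had the same surgery with no clamping. The Intermediate gate was measured in sham mice (2 arrays), at 4 h (3 arrays), at 24 h (3 arrays) and at 9 days (3 arrays). The Low gate was measured at 9 days (3 arrays) and in sham mice (2 arrays), and the High gate at 4 h (3 arrays) and in sham mice (2 arrays). All mice were of 1 strain with no engineered allele named in the labels, all were given saline and buprenorphine, and no source used here says how long after sham surgery those kidneys were taken. Values are deposited log2 values, and a gene is called present (P) by the deposited detection call of the probe set kept for it, so a gene with no P can still be called by another of its probe sets, which is said where it occurs. A level is compared here only between arrays for the same gene, since probe sets of different genes differ in brightness.

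The 21 arrays differed widely in yield, with 1.99% to 40.0% of all probe sets called P. Sham High replicate 1 (1.99%), 9 day Intermediate replicate 8 (3.29%) and 9 day Intermediate replicate 13 (4.67%) were under 5%. The medians over the OXPHOS genes in comparisons that use these arrays are given with and without them. Most single-gene differences and the counts of groups that did not overlap are given there only with them. The 3' to 5' signal ratio of Gapdh, a measure of RNA or cDNA that is not full length, was 298 and 28.3 for the sham High arrays, was 431 and 3.93 for the sham Intermediate arrays, and lay between 0.923 and 19.7 on the other 17 arrays in the comparisons. The same ratio of actin was 51.8 and 22.1 on 9 day Intermediate replicates 8 and 13, whose Gapdh ratios were 0.923 and 8.16, so the 2 ratios disagree for these arrays. It was 13.4 on sham High replicate 1, 183 and 2.83 on the sham Intermediate arrays and 1.58 to 7.92 on the other 16. Itgam, which encodes CD11b, was called P on 11 of 21 arrays with values of 2.14 to 5.52, and Csf1r, the receptor that defines the monocyte and macrophage lineage, was called P on 20. In sorted bulk RNA, fewer cells of a type and less RNA per cell cannot be told apart.

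Most OXPHOS genes were detected in every gate and at every time. On the 18 arrays above 5% P, 54 of the 84 genes were called P on all 18, among them all 17 genes of complex V, 19 of 40 in complex I, 2 of 4 in complex II, 6 of 9 in complex III and 10 of 14 in complex IV. Complex V was thus detected throughout, while each of the other complexes had genes that some of these arrays did not call. On those 18 arrays 57 to 83 of the 84 genes were P (67.9% to 98.8%), against 27.5% to 89.9% of all genes tested, which had passed the same filter on P calls. The array with 57 was 24 h Intermediate replicate 8, whose yield of 10.1% was the lowest of the 18. Over all 91 genes with a probe set, kept or not, the 8 complex I assembly factors were P on a median of 8 of 21 arrays (3 to 17), and the 7 tissue isoforms of complex IV on a median of 4 (0 to 10). The 9 ubiquitous complex IV subunits were P on a median of 19 (1 to 20), and the lowest of them was Cox7c.

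**Figure D1:**
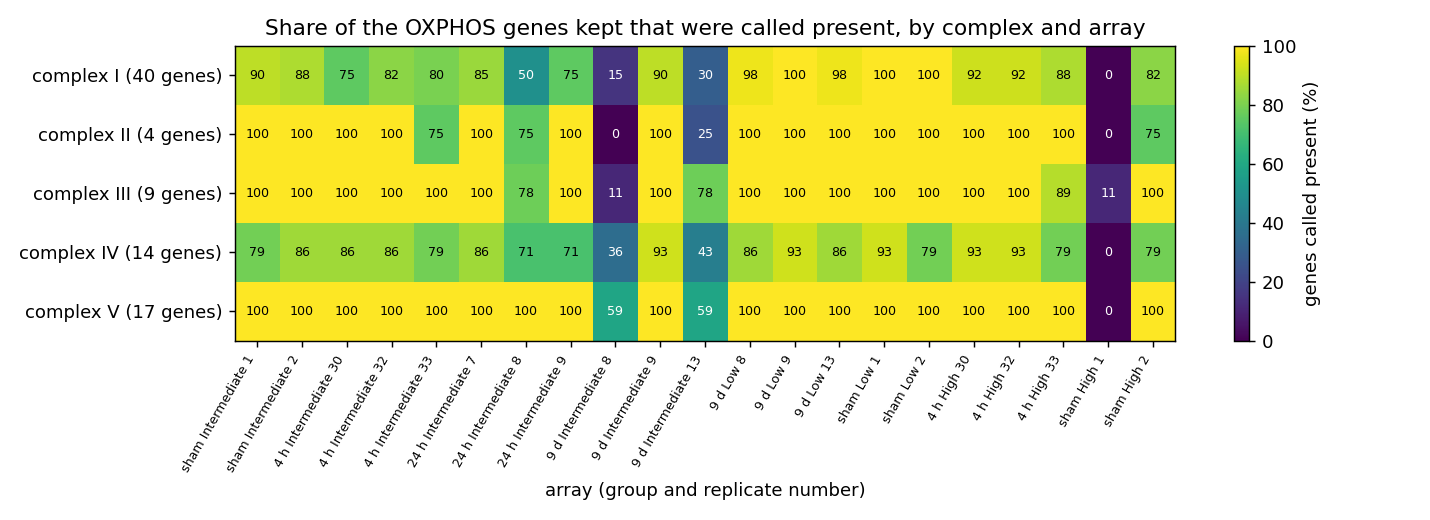
Share of the kept OXPHOS genes called present (colour and printed number, %) for each complex (rows) on each of the 21 arrays (columns, with group and replicate number). Complex V was at 100% on all 18 arrays above 5% P, and the dark columns are the 3 arrays under 5% P.

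Within complex IV the ubiquitous subunits other than Cox7c were P on more arrays than any tissue isoform. Such counts of different genes can also reflect the brightness of their probe sets. The ubiquitous subunits Cox4i1, Cox5a and Cox5b were P on 19, 18 and 20 of 21 arrays. The heart and muscle isoforms Cox6a2 and Cox7a1 were each P on 10 arrays, and the testis isoforms Cox6b2 and Cox8c on 8 and 4. The lung isoform Cox4i2 and the muscle isoform Cox8b were P on 2 and 0 arrays and were not kept, nor was Ndufa4l2, the hypoxia-regulated relative of Ndufa4, which was P on 2 arrays, while Ndufa4 itself was P on 19. Cox7a2l, a factor of respiratory supercomplexes, was P on 18. Cox8c was the 1 gene that passed the filter through a single group, so its differences follow in part from that filter. Cox7c and Ndufb4, which encode ubiquitous subunits, were P on 1 and 0 arrays and were not kept. On the reference RNA their values were only 4.08 and 1.24. These probe sets therefore do not show whether the 2 genes were expressed in the sorted cells.

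The catalytic and core subunits were not detected alike. Ndufs1, the largest iron-sulfur subunit of complex I, was P on 10 arrays and Ndufv1, the flavin subunit, on 18. In complex II Sdha, the flavoprotein, was P on 16 arrays, Sdhb, the iron-sulfur subunit, on 18, and the membrane anchors Sdhc and Sdhd on 17 and 19. Cyc1, the cytochrome c1 of complex III, was P on 18, Uqcrfs1, the Rieske protein, on 17, the core protein Uqcrc1 on 18 and Uqcrb on 20. In complex V the catalytic subunits Atp5a1 and Atp5b were each P on 19 arrays and Atp5e of the central stalk on 20. Ndufb11, a membrane-arm subunit of complex I, was P on 20, and the assembly factor Ndufaf1 on 6.

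On the 9 day Intermediate arrays under 5% P, 22 of the 84 genes were P on replicate 8 and 36 on replicate 13. The 2 arrays shared 13 of the OXPHOS genes, which is 59.1% of those on replicate 8 and 36.1% of those on replicate 13. Over all genes tested the shared genes were 46.0% and 29.5%. Of the OXPHOS genes, 39 were P on neither array. Atp5a1 was 12.57 on replicate 8, 12.92 on replicate 9 and 2.88 on replicate 13. Cox7a2 was 5.42, 11.83 and 13.97 on the same arrays. Atp5a1 was thus bright on replicate 8 and Cox7a2 on replicate 13, and each was dim on the other array. On sham High replicate 1 the gene called P was Uqcrb, at 13.72 (1.19% of the 84 genes, against 3.84% of all genes tested). The median of the 84 genes there was 4.57.

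**Figure D2:**
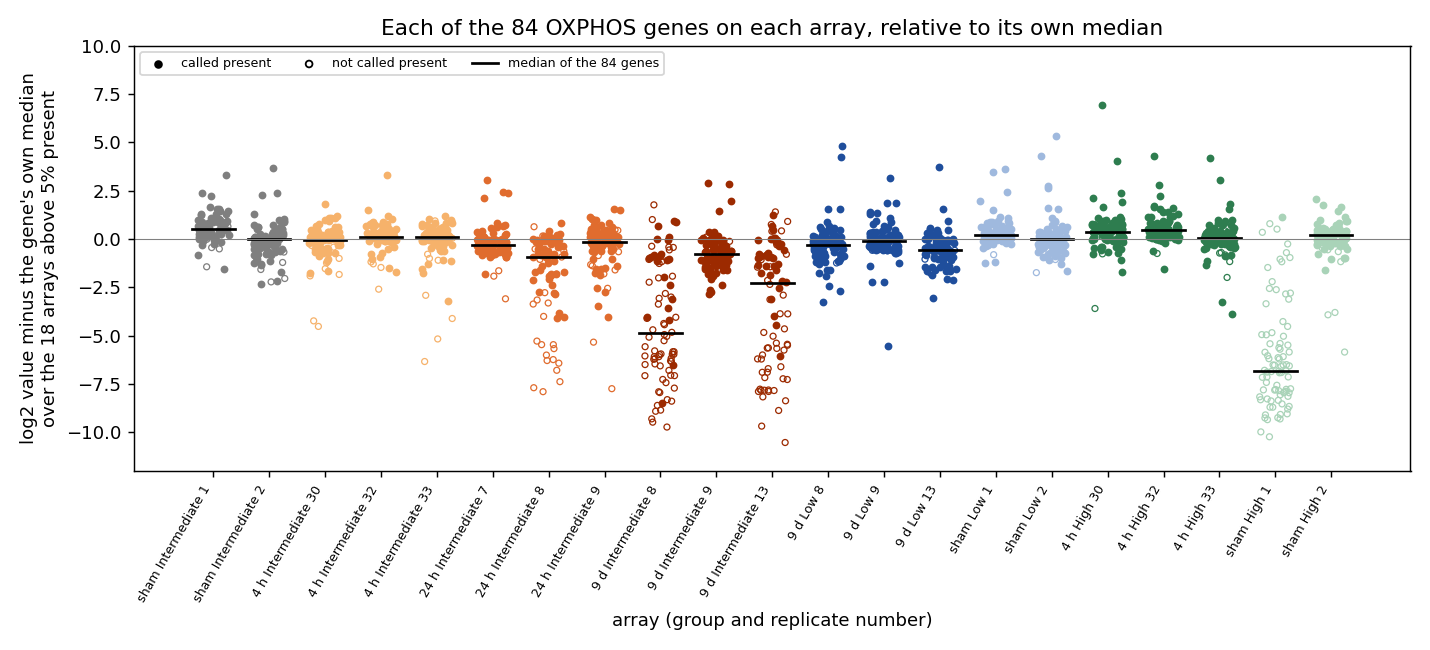
Each of the 84 OXPHOS genes on each of the 21 arrays, as its log2 value minus its own median over the 18 arrays above 5% P (filled, called present; open, not called present; black bar, median of the 84 genes). Points on 9 day Intermediate replicates 8 and 13 split into genes near 0 and genes far below 0, and most points of sham High replicate 1 lie far below 0.

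The promoters were searched for known binding motifs of regulators of respiratory genes, and 3 are shown. Ndufa10 is shown because it had the smallest p of the group, and Atp5k and Atp5l of complex V because theirs were the 2 windows with the most matches, so they do not stand for complex V as a whole. RefSeq promoter windows on GRCm38.p6, 250 bases before to 50 after the gene start, were found for 70 of the 84 genes. Both strands were searched for the strict palindrome of the NRF1 motif, CCGGAAG (the ETS motif that GABP binds), AAGATGGC (YY1) and AAGGTCA (the estrogen-related receptors). Capitals mark the matches, on either strand.
Ndufa10, chr1:92473709-92474008, minus strand: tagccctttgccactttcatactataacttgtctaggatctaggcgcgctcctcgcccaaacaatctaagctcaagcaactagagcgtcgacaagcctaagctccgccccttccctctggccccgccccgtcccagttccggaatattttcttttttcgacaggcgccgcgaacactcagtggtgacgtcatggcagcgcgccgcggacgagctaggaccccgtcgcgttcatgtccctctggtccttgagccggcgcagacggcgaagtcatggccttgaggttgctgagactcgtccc
Atp5k, chr5:108434350-108434649, minus strand: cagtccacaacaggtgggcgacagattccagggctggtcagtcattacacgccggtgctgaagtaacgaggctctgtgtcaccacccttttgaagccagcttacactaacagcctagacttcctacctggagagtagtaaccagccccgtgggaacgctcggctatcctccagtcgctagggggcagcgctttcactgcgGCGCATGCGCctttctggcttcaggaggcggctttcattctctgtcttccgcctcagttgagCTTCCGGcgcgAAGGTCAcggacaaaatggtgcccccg
Atp5l, chr9:44920693-44920992, minus strand: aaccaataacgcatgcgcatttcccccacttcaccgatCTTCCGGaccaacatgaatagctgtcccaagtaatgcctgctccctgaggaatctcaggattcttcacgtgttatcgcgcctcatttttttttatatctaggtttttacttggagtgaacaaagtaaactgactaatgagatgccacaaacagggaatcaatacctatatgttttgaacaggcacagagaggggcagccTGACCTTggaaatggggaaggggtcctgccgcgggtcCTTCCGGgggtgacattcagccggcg
The windows of Atp5k and Atp5l, 2 small subunits of the membrane part of complex V, each held 3 matches, and the window of Ndufa10 held none. In all, 37 of the 70 windows held none of the motifs. The NRF1 palindrome stood in 6 of the 70 windows (8.57%), against 1.97% of the 6808 windows of genes tested and 0.977% of all 27025 windows. The ETS letters stood in 18 (25.7%), against 19.9% and 9.12%. The YY1 letters stood in 9 (12.9%), against 5.21% and 2.88%, and the letters of the estrogen-related receptors in 7 (10.0%), against 3.25% and 4.66%. A match is a description of the letters and not evidence of binding.

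No OXPHOS gene passed the test in any of the 10 comparisons between groups. The test was limma's moderated test with Benjamini-Hochberg adjustment over all 8341 genes, called at an adjusted p under 0.05, and each ± beside a log2 difference is its standard error. The accounts below therefore give values and directions that did not pass, with the share of all genes that did. "Did not overlap" means that every array of one group lay above every array of the other.

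In the Intermediate gate at 24 h, most OXPHOS genes had lower values than in sham Intermediate, and the subunit with the largest difference was Ndufa10 of complex I. None of the 84 genes was called, against 0.456% of all genes, and 4 were under an unadjusted p of 0.05, against 9.63% of all genes. Values were below sham for 73 genes and above it for 11. The median log2 difference of the 84 genes was -0.78, against -0.07 for all genes tested, and 0.02 with the share of P calls as a covariate. The groups did not overlap for 30 genes, all lower at 24 h (35.7%), against 14.2% of all genes lower and 10.7% higher. All 4 genes of complex II and all 9 of complex III were below 0, with medians of -1.27 and -1.05. Complexes I and V had medians of -0.85 and -0.74, with 34 of 40 and 14 of 17 below 0, and complex IV had the smallest median, -0.23, with 12 of 14 below 0.

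Ndufa10, a supernumerary subunit of the complex I membrane arm, had the smallest p of any OXPHOS gene in any comparison. It was 10.41 and 11.34 in sham Intermediate, 7.12, 7.67 and 3.78 at 4 h, and 5.86, 3.28 and 3.62 at 24 h, and at 9 days it was 5.89, 9.31 and 6.61. It was P on both sham arrays, on none of the 6 arrays of 4 h and 24 h, and at 9 days on the array of 9.31 alone. At 24 h it differed from sham by -6.62 ± 1.47 (adjusted p 0.0555 in limma), a fitted 98.6-fold. For such folds, values not called P were set at no less than the lowest value called P on that array. That floor lay below the measured values, so each fold given for a gene with no P in 1 group equals the fitted fold. It is not a minimum, and it leaves out the spread between arrays. At 4 h the difference from sham was -4.68 ± 1.47 (limma adjusted p 0.346), a fitted 25.7-fold. In the fit without the 3 arrays under 5% P the 24 h difference was called (-6.62 ± 1.26, adjusted p 0.0238), where 1.2% of all genes were called, as many as the 1 of 84 OXPHOS genes (1.19%). It was also called with quantile normalization (adjusted p 0.0255), with the mean of its probe sets (0.0455), with the share of P calls as a covariate (0.0492) and with array weights (0.0372), and its adjusted p over all alternatives lay between 0.0238 and 0.227.

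In the other gates Ndufa10 was present on most arrays. It was 9.31, 10.25 and 9.15 in 9 day Low and 9.84 and 8.94 in sham Low. It was 5.36, 7.42 and 8.98 in 4 h High, against 6.40 and 10.61 in sham High. The other probe set of the gene, P on 2 of 21 arrays, differed by -2.14 between 24 h and sham Intermediate. Summed over 15 proximal tubule markers, the linear level was 31282 and 32229 in sham Intermediate and 11892 to 18594 at 4 h. It was 4247 to 7177 at 24 h and 291 to 1190 at 9 days. Of the 15 markers, 13 to 15 were P in sham, 6 to 11 at 4 h, 2 to 7 at 24 h and 0 to 4 at 9 days. Lrp2, which encodes the tubule receptor megalin, was P on both sham arrays and on none of the injured Intermediate arrays. The tubule sum in 9 day Low, where Ndufa10 was P on all 3 arrays, was 695 to 2451. The part of tubule RNA in the Ndufa10 difference was not tested.

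**Figure D3:**
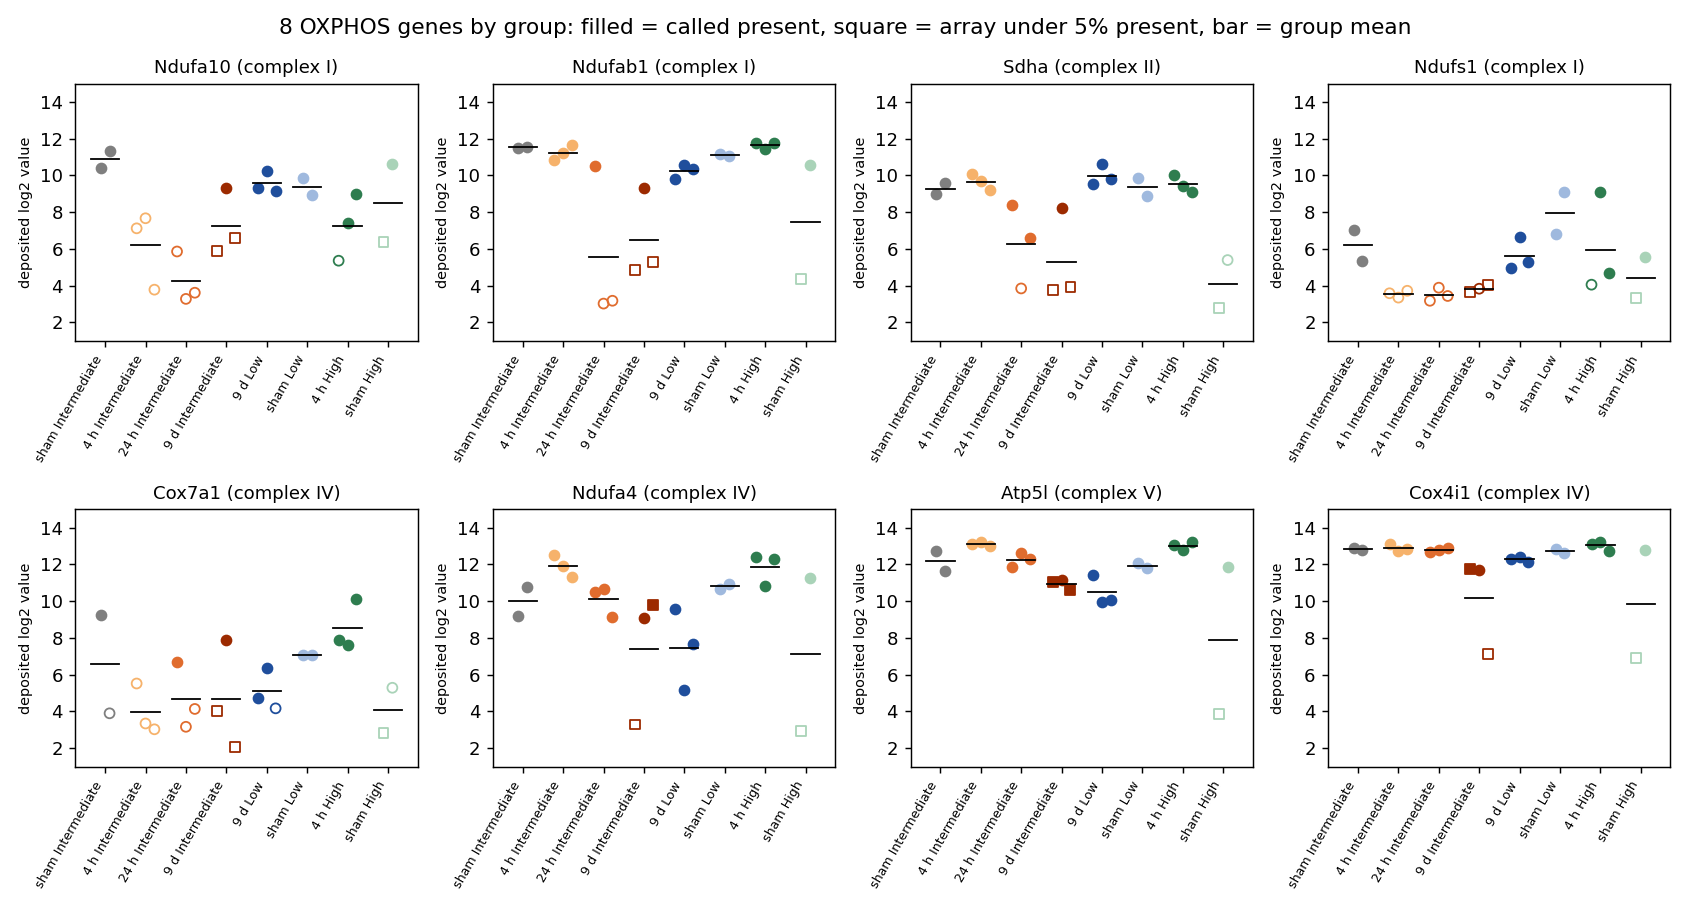
Deposited log2 values of 8 OXPHOS genes on each array by group (filled, called present; open, not called present; squares, arrays under 5% P; bars, group means). Ndufa10 was not called present on any 4 h or 24 h Intermediate array, while Cox4i1 lay between 11.69 and 13.23 on all arrays above 5% P.

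Other members with small p at 24 h were Ndufab1 and Sdha. Ndufab1, the mitochondrial acyl carrier protein that is also a complex I subunit, was 11.49 and 11.57 in sham Intermediate, 10.82, 11.24 and 11.68 at 4 h, and 10.54, 3.02 and 3.18 at 24 h. Its 24 h values were thus split, with replicate 7 near the 4 h values and replicates 8 and 9 not called P. It differed by -5.95 ± 1.94 from sham (limma adjusted p 0.231) and by -5.67 ± 1.74 from 4 h (adjusted p 0.329). Both differences were called when 24 h replicate 7 was left out (limma adjusted p 0.0324 and 0.0373), where 0.336% and 0.108% of all genes were called. Replicate 7 had the highest yield of the 24 h arrays (19.2% P), and the arrays left had 10.1% and 11.4%. Another probe set, P on 16 arrays, gave -5.35 and -5.22. Sdha was 8.41, 3.85 and 6.57 at 24 h, against 9.00 and 9.56 in sham Intermediate, a difference of -3.0 ± 1.34 (limma adjusted p 0.470). Against the 4 h values of 10.08, 9.71 and 9.22 the difference was -3.39 ± 1.20 (limma adjusted p 0.435), but another probe set of Sdha, P on 15 arrays, gave 1.58, so these probe sets disagreed in sign. Ndufs1 was 3.18, 3.89 and 3.44 at 24 h with no P, against 7.04 and 5.36 in sham, a fitted 6.48-fold lower (limma adjusted p 0.490).

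The direction at 24 h was not the same in every setting. With the share of P calls as a covariate 41 of 84 genes were below 0. With each array centred on its median the median over the OXPHOS genes was -0.22, and without 24 h replicate 8 it was -0.42. Neutrophil marker sums were 109554 to 123508 at 24 h, against 87297 to 97509 in sham Intermediate, with 13 of 14 markers P on every array of both groups. Tissue macrophage sums were 10521 to 16019, against 17264 to 29735, with 6 to 11 of 13 markers P, against 9 to 11. Their part in the result was not tested.

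At 4 h the OXPHOS genes of the Intermediate gate lay close to sham Intermediate. None was called, against 0.216% of all genes, and 3 were under an unadjusted p of 0.05, against 7.06%. Values were below sham for 51 genes and above for 33, with a median of -0.18, against -0.09 for all genes, and the median was above 0 with arrays centred (0.37), with the covariate (0.55) and with the deposited signals (0.32). The groups did not overlap for 14 lower genes (16.7%, against 12.6% of all genes) and for 5 higher genes (6.0%, against 9.82%). The 5 higher genes were Atp5g2, Atp5l, Atp5md, Cox6b2 and Ndufa4. Ndufa4, a complex IV subunit, was 12.52, 11.94 and 11.32 at 4 h, against 9.19 and 10.79 in sham. After Ndufa10 the smallest p belonged to Ndufs1, with 3.59, 3.35 and 3.72 at 4 h and no P, a fitted 6.26-fold below sham (limma adjusted p 0.693). Cox6a2 was 7.27, 7.23 and 8.02 at 4 h, against 7.82 and 10.83 in sham, so its groups overlapped. The complex II anchor Sdhc was 8.00, 9.81 and 2.68 at 4 h, against 10.69 and 9.91 in sham, a difference of -3.47 ± 1.98 (limma adjusted p 0.824), and its lowest value was not called P. Another probe set of Sdhc, P on 10 arrays, gave -0.20.

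At 24 h most genes of the Intermediate gate also had lower values than at 4 h, again with no call. None of the 84 was called, against 0.12% of all genes, and 3 were under an unadjusted p of 0.05, against 7.23%. Values at 24 h were below 4 h for 66 genes, with a median of -0.55, against -0.01 for all genes, and 21 genes did not overlap and were lower (25.0%, against 7.3%), with none apart and higher, against 6.65% of all genes. Complex V had 15 of 17 below 0 with a median of -0.56. Atp5l, whose promoter is shown above, was 11.85, 12.61 and 12.31 at 24 h, and every 4 h value lay above these. Ndufaf8, a complex I assembly factor, was 10.24, 4.71 and 8.44 at 24 h, against 11.07, 10.76 and 11.19 at 4 h (-3.21 ± 1.21, limma adjusted p 0.491). Ndufa9, a complex I subunit at the junction of its arms, was 9.97, 4.00 and 7.33 at 24 h, against 10.11, 10.85 and 11.40 (-3.69 ± 1.80, limma adjusted p 0.707). For both genes the lowest value was on 24 h replicate 8, the array of lowest yield in that group.

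At 9 days in the Intermediate gate the values were lower still, but the size rests on the arrays under 5% P. Against sham Intermediate none of the 84 genes was called, against 0.683% of all genes, 28 were under an unadjusted p of 0.05, all lower, against 12.6% of all genes, and 50 did not overlap and were lower (59.5%, against 15.7%), with 1 apart and higher, against 7.18% of all genes. The median was -2.93, against -0.45 for all genes. With the 1 remaining 9 day array against the 2 sham arrays, which assumes that this array varies like the other groups, the median was -1.02 over the OXPHOS genes and 0.09 over all genes, with 75 of 84 below 0 and none called. By complex these medians were -0.89, -0.95, -1.61, -0.87 and -1.03 from I to V, and all 9 genes of complex III were below 0. Ndufa12, a complex I subunit, was 3.12, 9.70 and 3.25 at 9 days, against 12.00 and 11.24 in sham (-6.26 ± 1.71, limma adjusted p 0.108). Ndufb9 was 5.70, 9.29 and 4.21 at 9 days, against 13.27 and 12.13 in sham, and was -3.41 ± 0.92 without the arrays under 5% P (limma adjusted p 0.104). Ndufc1, Ndufa7 and Ndufa13 had limma adjusted p of 0.167 to 0.175, and in each the value of replicate 9 was the highest of the 3. Against sham Intermediate all 15 proximal tubule markers tested were below 0, with a median of -6.16 and 6 called lower. Of 13 neutrophil markers tested, 12 were below 0, with a median of -2.40 and 2 called lower. Of 12 tissue macrophage markers, 7 were below 0 and 5 above. These marker results include the arrays under 5% P, and their part in the OXPHOS values was not tested.

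Against 24 h Intermediate none of the 84 genes was called at 9 days, against 0.384% of all genes, and 18 were under an unadjusted p of 0.05, against 11.5%. The median was -1.82, against -0.16 for all genes, and 24 genes did not overlap and were lower (28.6%, against 8.02%), with 1, Ndufa10, apart and higher, against 4.42%. Without the arrays under 5% P the median was -0.44, against 0.12 for all genes, with 49 below 0 and 35 above. Neutrophil marker sums were 38817 to 59028 at 9 days, against 109554 to 123508 at 24 h, and all 13 neutrophil markers tested were below 0, with a median of -3.35 and 2 called lower. Their part in the result was not tested. Ndufa7 was 5.91, 9.08 and 3.88 at 9 days, against 11.44, 11.64 and 11.94 at 24 h (-5.38 ± 1.47, limma adjusted p 0.116). The other probe sets of Ndufa7 gave -2.04, -5.19, -3.63 and -2.42. Uqcrh, the hinge protein of complex III, was 6.75, 11.95 and 5.47, against 13.29, 12.90 and 13.35. Ndufb2 and Atp5c1 had limma adjusted p of 0.160 and 0.204. Ndufa10 ran the other way, with 9 day minus 24 h at 3.02 ± 1.31 (limma adjusted p 0.371), and at 5.06 without the arrays under 5% P (limma adjusted p 0.179). An F test over the 4 Intermediate groups called none of the 84 genes, with 20 under an unadjusted p of 0.05 (23.8%, against 13.1% of all genes) and 85 of 8341 genes called in all (1.02%), and its smallest adjusted p among the OXPHOS genes in limma was 0.112, for Ndufa10. This F test includes the 9 day arrays under 5% P and is not given without them, so its shares rest in part on those arrays.

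**Figure D4:**
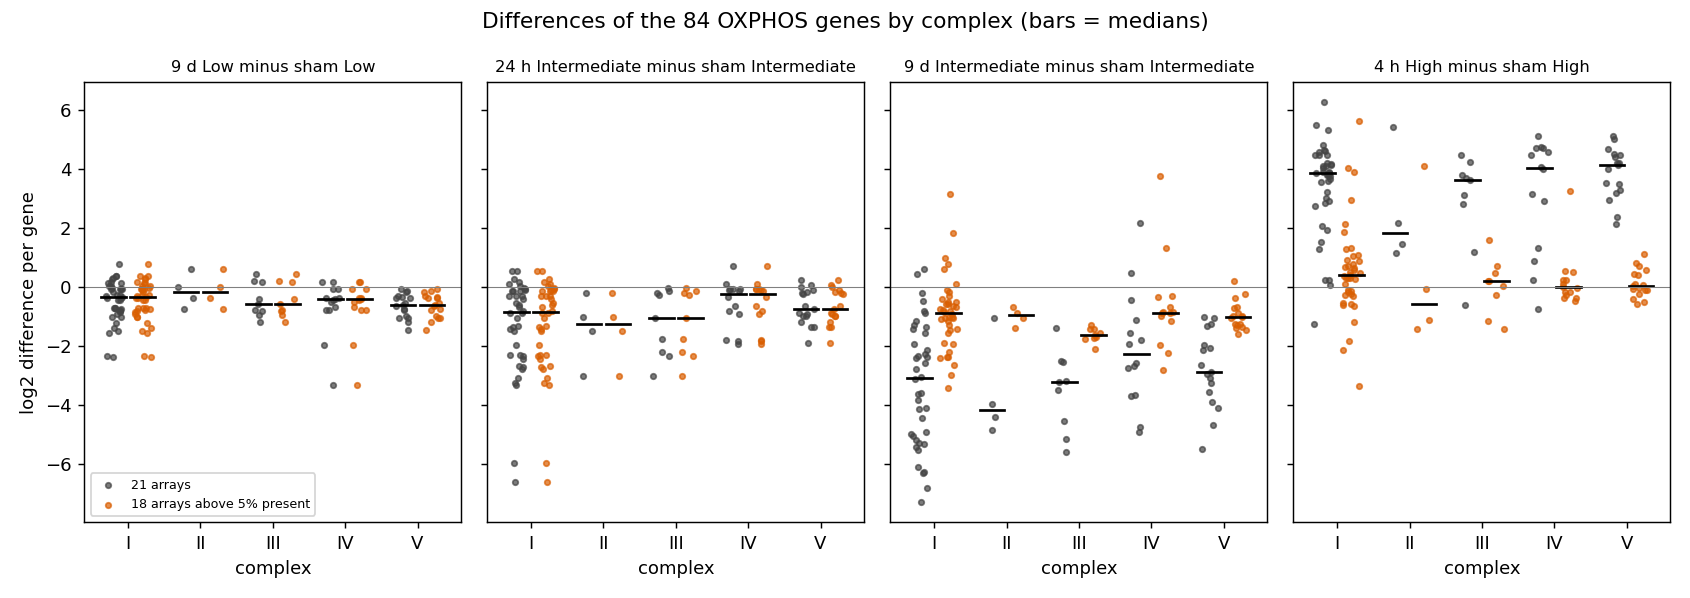
Log2 difference of each of the 84 OXPHOS genes by complex (x axis) in 4 comparisons (panels; y axis, injured minus sham), from all 21 arrays (grey) and from the 18 arrays above 5% P (orange), with medians as bars. Without the 3 arrays, the medians of 9 day Intermediate minus sham move to between -1.61 and -0.87, those of 4 h High minus sham lie between -0.59 and 0.40, and the other panels keep the same differences.

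In the Low gate, OXPHOS genes had slightly lower values at 9 days than in sham Low. None was called, against 0.995% of all genes, and none was under an unadjusted p of 0.05 in limma, against 10.5% of all genes. Values were below sham for 67 genes and above for 17, with a median of -0.41, against -0.12 for all genes. Low-gate values did not overlap for 33 lower genes (39.3%, against 18.5% of all genes) and for 1 higher gene (1.2%, against 12.4%), Ndufc2. All 17 genes of complex V were below 0, between -1.47 and -0.05, with a median of -0.62, and 10 of them did not overlap. The medians of complexes I to IV were -0.35, -0.18, -0.57 and -0.42.

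The largest complex V difference was that of Atp5l, subunit g of the membrane part. It was 11.40, 9.95 and 10.07 in 9 day Low, against 12.08 and 11.81 in sham Low (-1.47 ± 1.43, limma adjusted p 0.915). Atp5b, the catalytic beta subunit, was 9.51, 11.33 and 10.95, against 11.73 and 11.81 (-1.17 ± 1.57, limma adjusted p 0.992). For both genes the 9 day values lay below both sham values. Ndufa4 was 9.57, 5.17 and 7.66 in 9 day Low, against 10.66 and 10.94 in sham Low (-3.34 ± 2.01, limma adjusted p 0.673), and its limma adjusted p was 0.169 in the fit without the arrays under 5% P, none of which is in these groups. Ndufs1 was 4.94, 6.67 and 5.27, against 6.80 and 9.13 (-2.34 ± 1.23, limma adjusted p 0.562). Cox7a1 was 4.75, 6.37 and 4.17, against 7.06 and 7.06 (-1.96 ± 1.70, limma adjusted p 0.866). Ndufaf4 was 8.09, 4.89 and 4.78, against 7.42 and 9.16, and its groups overlapped.

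The composition markers of the Low gate moved too. Proximal tubule sums were 695 to 2451 in 9 day Low, against 13196 and 13248 in sham Low, with 3 to 8 of 15 markers P, against 14. Neutrophil sums were 9180 to 11900, against 69407 and 69531, with 6 to 10 of 14 markers P, against 13 and 14. Tissue macrophage sums were 53480 to 73186, against 27082 and 35704, with 12 of 13 markers P on every array. Lrp2 was not P on any 9 day Low array and P on both sham Low arrays. Their part in the OXPHOS values was not tested. With each array centred on its median, the OXPHOS median was -0.15, and with the share of P calls as a covariate it was -0.22 with 52 of 84 below 0.

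Between the gates of the 9 day mice, Intermediate lay below Low for 77 of 84 genes, and this difference shrank without the arrays under 5% P. None was called, against 0.623% of all genes, and 25 were under an unadjusted p of 0.05, all lower in Intermediate, against 20.4% of all genes. The groups did not overlap for 31 lower genes (36.9%, against 18% of all genes) and for 1 higher gene (1.2%, against 4.39%). The median was -2.38, against -1.24 for all genes, and 0.35 with the share of P calls as a covariate. With the 1 array above 5% P, assumed to vary like the other groups, it was -0.40, against -0.13, with 59 of 84 below 0. Sdha was 3.74, 8.24 and 3.93 in 9 day Intermediate, against 9.52, 10.64 and 9.82 in 9 day Low (-4.69 ± 1.20, limma adjusted p 0.0700), and another probe set of the gene gave -1.70. Ndufa12 differed by -5.92 ± 1.53 (limma adjusted p 0.0735), with 3.12, 9.70 and 3.25, against 11.24, 11.51 and 11.05. Ndufb10 and Ndufaf8 had limma adjusted p of 0.101 and 0.110. The other probe set of Ndufaf8, P on 4 of 21 arrays, gave 0.88, against -4.02 for the one kept. For each of these 4 genes, on the probe set kept, even the 9 day Intermediate array above 5% P lay below all 3 Low values. Neutrophil marker sums were 38817 to 59028 in 9 day Intermediate, against 9180 to 11900 in 9 day Low, with 12 of 13 markers tested above 0, a median of 3.39 and 2 called higher. All 12 tissue macrophage markers tested were below 0, with a median of -4.39, and their sums were 2697 to 47327, against 53480 to 73186. Their part in the result was not tested.

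In the High gate at 4 h, nearly all OXPHOS genes had higher values than in sham High. On sham High replicate 1 only 1 of the 84 genes was P (1.19%, against 3.84% of all genes tested). None was called, against 0.432% of all genes, while 47 were under an unadjusted p of 0.05, all higher, against 14.7% of all genes. The groups did not overlap for 31 higher genes (36.9%, against 22.7%) and for 1 lower gene, Uqcrb, against 8.4%. The median was 3.84, against 0.74 for all genes, with 81 above 0. Against the remaining sham High array alone, which is assumed to vary like the other groups, it was 0.17, against 0.31 for all genes, with 49 above and 35 below 0.

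Some genes were low on both sham High arrays. Sdha was 10.04, 9.42 and 9.09 in 4 h High, against 2.80 and 5.39 in sham High (5.42 ± 1.34, limma adjusted p 0.109). Another Sdha probe set was P on 1 of the sham High arrays and gave 1.82, so the gene was detected there. Ndufs7, an iron-sulfur core subunit of complex I, was 10.65, 11.33 and 9.29, against 3.51 and 4.80 (6.27 ± 2.02, limma adjusted p 0.171), and its other probe set was P on 1 of the sham High arrays. Ndufaf5 was 9.84, 6.93 and 8.89, against 4.64 and 4.64 with no P (3.92 ± 1.16, limma adjusted p 0.141). Without the arrays under 5% P these genes differed by 4.12, 5.62 and 3.91, with limma adjusted p of 0.221 to 0.363. Ndufb1 was 8.64, 9.06 and 8.10, against 3.65 and 6.45 (limma adjusted p 0.121). Atp5l was 13.04, 12.79 and 13.20, against 3.87 and 11.88 (limma adjusted p 0.134).

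Sham High replicates 1 and 2 also differed in tubule signal, with sums of 391 and 22855, against 10127 to 16966 in 4 h High, and in the Gapdh ratio of 298 and 28.3. Neutrophil sums were 55479 to 89610 in 4 h High, against 31040 to 36544 in sham High, with 12 of 13 markers tested above 0 and 2 called higher. All 9 classical monocyte markers tested were above 0, with a median of 3.44, and their sums were 34240 to 42025, against 2068 to 29887. Their part in the result was not tested. A further 3 sham arrays of the High gate, which share 1 label, sham 58, stayed outside the tests. They had 83, 77 and 80 of the 84 genes P (98.8%, 91.7% and 95.2%), against 79.2%, 71.4% and 74.7% of all genes tested. On them Sdha was 8.50 to 10.96 and Ndufs7 10.44 to 11.16, with P on all 3 and above both sham High values. Ndufaf5 was 3.12 to 6.41 there, with P on 1, around its sham High values of 4.64. The reference RNA had all 84 genes P, against 94.3% of all genes tested.

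At 4 h the High gate and the Intermediate gate held the OXPHOS genes at similar values, and the largest difference was in a tissue isoform. None of the 84 was called, against 0% of all genes, and 5 were under an unadjusted p of 0.05 in limma, all higher in High, against 5.99% of all genes. Values in High were above Intermediate for 57 genes and below for 27, with a median of 0.17, against 0.14 for all genes, and the median was below 0 with arrays centred (-0.21), with the covariate (-0.20) and with the deposited signals (-0.19). No overlap was found for 10 higher genes (11.9%, against 6.98%), and no gene was apart and lower, against 4.46%. Cox7a1, the heart and muscle form of subunit 7a of complex IV, was 7.87, 7.62 and 10.12 in 4 h High, all P, against 5.52, 3.34 and 3.03 in 4 h Intermediate, none P. It was a fitted 23.8-fold higher (4.57 ± 1.52, limma adjusted p 0.592). In sham High it was 2.83 and 5.29 with no P, and in sham Intermediate 9.25 on the 1 array that called it P, so it was not high on every High array. Between these 4 h gates, 12 of 13 neutrophil markers tested were lower in High, with a median of -0.85. Of the classical monocyte markers 8 of 9 were higher in High, with a median of 1.75. None of these markers was called, and their part was not tested.

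The other small p values were in complex I. Ndufaf5 was 9.84, 6.93 and 8.89 in 4 h High, against 3.91, 5.66 and 6.83 in 4 h Intermediate (3.09 ± 1.04, limma adjusted p 0.593). Ndufb1 was 8.64, 9.06 and 8.10, against 6.18, 6.36 and 6.86 with no P, a fitted 4.38-fold higher (limma adjusted p 0.734). Ndufaf4 was 10.77, 6.07 and 3.00, against 2.28, 2.63 and 3.03, so its groups overlapped. Ndufs1 was 4.05, 9.11 and 4.71, against 3.59, 3.35 and 3.72 (2.40 ± 1.10, limma adjusted p 0.825). The difference of the 4 h response between High and Intermediate was tested as an interaction and called none of the 84 genes, with 10 under an unadjusted p of 0.05 (11.9%, against 10.3% of all genes) and 1 gene called in all. The same test for the 9 day response between Intermediate and Low called none, with 7 under an unadjusted p of 0.05 (8.33%, against 7.37% of all genes) and 0 genes called in all. Both shares lie near those of all genes, and both tests include arrays under 5% P.

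In sham mice the Intermediate and Low gates had similar OXPHOS values, while all genes together were lower in Intermediate. None of the 84 was called, against 0.0719% of all genes, and 3 were under an unadjusted p of 0.05, against 9.06%. Values in Intermediate were above Low for 53 genes and below for 31, with a median of 0.11, against -0.58 for all genes. Values did not overlap for 19 higher genes (22.6%, against 12.9%) and for 9 lower genes (10.7%, against 28.7%). Cox6a2 was 7.82 and 10.83 in sham Intermediate, against 5.96 and 6.11 in sham Low (3.29 ± 0.94, limma adjusted p 0.198), and the value of 10.83 was the highest of the gene on any array. Ndufaf4 was 3.81 and 3.14, against 7.42 and 9.16 (-4.82 ± 1.87, limma adjusted p 0.430), but its other probe set was P on 1 of the sham Intermediate arrays and gave -0.90. Ndufaf5 was 4.38 and 3.60 with no P, against 6.60 and 8.58, a fitted 12.2-fold lower (limma adjusted p 0.367). Ndufaf1 was P on both sham Low arrays and on neither sham Intermediate array (limma adjusted p 0.778). These assembly factors were at low values in sham Intermediate, whose share of probe sets called P was 15.9% and 22.2%, against 40.0% and 27.4% in sham Low. Tubule sums were 31282 and 32229, against 13196 and 13248. Of the markers tested, 10 of 12 for tissue macrophages were below 0 (median -1.76), as were 8 of 9 for classical monocytes (median -1.13). For neutrophils 12 of 13 were above 0, with a median of 0.36. No marker of these 3 lists was called, and the part of these cell types was not tested. With the share of P calls as a covariate the median was 2.18, and with arrays centred it was 1.45.

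Genes outside the group that serve the same pathway were described from fixed lists. Of 29 OXPHOS assembly factors tested, 24 genes of the tricarboxylic acid cycle and electron carriers, and 15 regulators of mitochondrial biogenesis, the 1 gene called in these 10 comparisons was Cox16, an assembly factor of complex IV, higher in 4 h High than in sham High (5.70 ± 1.08, limma adjusted p 0.0372). Cox16 was 10.53, 9.69 and 9.32 in 4 h High, against 3.11 and 5.19 in sham High. In the fit without the arrays under 5% P, which leaves 1 sham High array, the Cox16 difference was 4.66 and was not called. In 24 h against sham Intermediate 23 of the 24 cycle genes were below 0, with a median of -1.45, and none was called. Of the assembly factors 16 of 29 were below 0, with a median of -0.14, and of the biogenesis regulators 8 of 15, with a median of -0.44. Ogdh and Idh3a, dehydrogenases of the cycle, differed by -5.40 ± 1.64 and -5.00 ± 1.68 (limma adjusted p 0.171 and 0.257). In 9 day against sham Low 21 of 24 cycle genes were below 0, with a median of -0.51, and 13 of 15 biogenesis regulators, with a median of -0.49, while of the assembly factors 17 of 29 were below 0, with a median of -0.12. Ppargc1a, the coactivator of mitochondrial biogenesis, differed by -3.08 ± 1.25 between 24 h and sham Intermediate (limma adjusted p 0.408). Its groups overlapped, and the standard deviation of its 2 sham values was 4.10.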

How the data were processed

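RNA from sorted kidney cells was amplified with a kit for small amounts and hybridised to mouse arrays of 45101 probe sets, per the labels' protocols. The log2 values were made by the authors with RMA in Affymetrix Expression Console, per the submitters' processing notes. The deposited linear signal intensities have the form of MAS5 output, and no source used here names their algorithm. Deposited P, M and A calls set detection.

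Of 25 arrays, 21 in 8 groups entered the fit. The 3 sham 58 High arrays carry 1 label and may not be separate animals, so they stayed outside, as did 1 reference RNA. One 4 h High array, replicate 30, is also described once as 9 days and stayed in its 4 h group. Later groups named in the series text were not analysed here. Nothing in the labels says that arrays of a group come from separate animals, so p-values measure the spread between these arrays. The number of arrays limits precision.

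Probe sets with exactly 1 gene (34958) were used, 932 with several genes and 9211 not listed were left out, and per gene the probe set of highest mean log2 value was kept. Genes called P on at least 2 arrays of 1 group were tested (8341). Symbols are those of GRCm38.p6. Cox7b, Ndufa11, Ndufb4b, Ndufb4c and Ndufs6 were among the genes with no probe set of their own here.

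A group-means model was fitted with limma 3.58.1 in R 4.3.3 (lmFit, eBayes; 13 residual degrees of freedom, median residual SD 1.64), with two-sided tests and Benjamini-Hochberg adjustment over all genes tested. The script was tested on simulated data. For marker sums the deposited log2 value of the probe set kept for each marker was put back on the linear scale, and these values were added. Members named are those called, the 4 of smallest p in each comparison, the highest and lowest mean of each complex and a list of catalytic subunits and isoforms; a few others were singled out after their values were seen. The members, lists and tests were chosen with earlier results of these data known. Alternatives were the deposited signals as log2(signal + 1), quantile normalization, centring, other detection filters, the mean of probe sets, the share of P calls as a covariate, array weights, fits on the compared groups alone, a variance trend, the replicate number as a block and leaving out arrays.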

Additional observations from a re-analysis of the deposited data

How the results depend on the processing

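In 4 of the 10 comparisons (9 day against sham Low, 4 h against sham Intermediate, 4 h High against 4 h Intermediate and sham Intermediate against sham Low) the number of OXPHOS genes called was 0 under every alternative run. In 24 h against sham Intermediate it was 1, Ndufa10, with quantile normalization, the mean of probe sets, the share of P calls as a covariate and array weights, and without the arrays under 5% P (1.19%, against 0.348% to 1.2% of all genes called in the same fits). In 9 day Intermediate against 9 day Low it was 1 with the mean of probe sets (Ndufa12; 1.68% of all genes), and against 24 h Intermediate it was 3 with arrays centred (3.57%, against 2.21%). Array weights, which trust arrays by their fit, called 30 in 9 day Intermediate against 9 day Low (35.7%, against 21.1% of all genes), 19 against sham Intermediate (22.6%, against 4.27%) and 18 against 24 h (21.4%, against 7.22%). Leaving out each array in turn gave 0 to 25, 0 to 19 and 0 to 16 calls in the same comparisons, the highest without 9 day Intermediate replicate 9, which leaves the 2 arrays under 5% P alone in the group and calls 15.5%, 5.3% and 6.68% of all genes. The range was 0 to 54 in 4 h High against sham High, the highest without sham High replicate 2, which leaves the array of 1.99% P and calls 6.19% of all genes, and 0 to 1 in 24 h Intermediate against sham and against 4 h, the 1 being Ndufab1 without 24 h replicate 7. Without the arrays under 11% P, an alternative chosen after seeing the data, 1 gene (Ndufs7) was called in 4 h High against sham High (limma adjusted p 0.0178), with 0.959% of all genes. The fits that called Ndufab1 (1.19% of the OXPHOS genes) called 0.336% and 0.108% of all genes. The causes were not tested. The medians over the OXPHOS genes that changed sign with scaling stand beside their comparisons.

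The replicate numbers are shared by arrays of different gates. The residuals of arrays with the same number correlated at -0.0719 to 0.0601, which does not show whether they come from 1 animal, and the labels used here do not say. In the sham groups of 2 the residuals mirror each other and add no second value. With the number as a random block (consensus correlation -0.0276), and as a fixed block in the 3 gate comparisons, 0 OXPHOS genes were called. Array yield limits detection: a gene not called P has only an upper bound there.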
